A study of Rattus norvegicus with 20 samples.

Results

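The metallothioneins Mt1, Mt2A and Mt3, the zinc-sensing transcription factor Mtf1 and the zinc transporters Slc39a14, Slc30a1 and Slc30a2 were followed in the gastrocnemius muscle of tumour-bearing rats. These 7 genes, of 32495 rows with a gene name in the count table, were found by their symbols. They were chosen on the diet comparison of these same libraries, because Mt2A was among the genes that changed most between the fish oil and the standard diet, so their values in that comparison are a description with no test. Metallothioneins are small, cysteine-rich proteins that bind zinc and copper, and their genes respond to zinc, glucocorticoids, cytokines and oxidative stress. MTF1 binds short metal response elements in their promoters and in that of Slc30a1 when zinc rises. SLC39A14 carries zinc and iron into the cell, SLC30A1 exports zinc across the plasma membrane and SLC30A2 moves it into vesicles. In skeletal muscle, Mt1 and Mt2A are known to rise in several forms of wasting, and Slc39a14 in muscle of animals with metastatic cancer.

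The muscles came from female Fischer 344 rats that all carried a Ward colorectal carcinoma, and no tumour-free group was among the samples analysed here. TUMOUR STD (5 libraries) received no chemotherapy and ate the standard diet, CHEMO STD (7 libraries) received 2 cycles of irinotecan (CPT-11) and 5-fluorouracil on the same diet, and CHEMO FO (8 libraries) received the same 2 cycles and was switched to a diet with fish oil, a source of EPA and DHA, when chemotherapy began. Total RNA was depleted of ribosomal RNA and sequenced as stranded libraries, and the labels give neither the age of the rats nor whether each library came from a separate animal, so p values measure the spread between these samples. Summed counts over all rows of the count table ranged from 3023899 to 10887041 per library. CHEMO STD replicates 1 and 2, far closer to each other than any other pair of libraries within a group, were counted as 1 sample (CHEMO STD n = 6, 19 samples in all).

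The tissue label was checked against 10 listed skeletal muscle markers. Of these, 7 were in the table, among them Acta1, Ckm and Myh4, and they summed to 164480 to 237123 CPM in 18 of 19 samples, where CPM are counts scaled to a common library size after TMM normalisation. One library, CHEMO FO replicate 18, stood apart. Its muscle markers summed to 118008 CPM, the lowest of 19, and 7 of 7 were below the median of the 7 other CHEMO FO samples. It held the highest value of all samples for 2275 of 13761 genes (16.5%) and the lowest for 2177 (15.8%), against 11.9% and 12.1% in TUMOUR STD replicate 10, the next most extreme sample. Results on the zinc genes are therefore given with and without this library.

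The promoters of the metallothioneins and of Slc30a1 are shown as a description of their sequence. Their part in the levels seen in CHEMO FO replicate 18 was not tested. RefSeq orders Mt1, Mt2A, Mt3 and Mt4 as neighbours on chromosome 19. The 250 bases before each RefSeq start site were searched on both strands for the metal response element core in the forms TGCACNC and TGCGCNC. Capitals mark the cores, and the coordinates are of GRCr8, a later build than the one the counts were made on. Mt1, on the minus strand at chr19:10832976-10833225, had 6 cores, a number reached by only 0.0269% of 33469 rat promoters of that length:
Mt1: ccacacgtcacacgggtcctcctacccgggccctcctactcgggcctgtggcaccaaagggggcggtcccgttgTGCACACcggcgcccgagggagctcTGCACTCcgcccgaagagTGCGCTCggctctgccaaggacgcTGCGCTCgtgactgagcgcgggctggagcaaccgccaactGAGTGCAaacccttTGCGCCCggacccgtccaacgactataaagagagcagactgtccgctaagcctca
Mt2A, on the minus strand at chr19:10838709-10838958, had 4 cores, and 0.266% of promoters had at least that many:
Mt2A: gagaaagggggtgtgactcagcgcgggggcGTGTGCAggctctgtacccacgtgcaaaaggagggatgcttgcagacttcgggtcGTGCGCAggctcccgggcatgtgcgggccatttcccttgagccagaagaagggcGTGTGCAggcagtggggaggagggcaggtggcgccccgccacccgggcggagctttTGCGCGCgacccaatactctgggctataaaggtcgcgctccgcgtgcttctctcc
Mt3, whose product is best known from the brain, had 3 cores on the minus strand at chr19:10856081-10856330 (1.17% of promoters had at least that many):
Mt3: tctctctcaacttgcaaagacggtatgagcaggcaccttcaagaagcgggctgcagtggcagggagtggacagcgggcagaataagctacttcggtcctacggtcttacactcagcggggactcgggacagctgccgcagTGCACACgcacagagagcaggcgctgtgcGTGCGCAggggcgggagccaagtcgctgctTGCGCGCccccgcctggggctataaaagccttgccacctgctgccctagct
Slc30a1, a target of MTF1 elsewhere, had 2 cores on the plus strand at chr13:106021769-106022018 (4.9% of promoters had at least that many):
Slc30a1: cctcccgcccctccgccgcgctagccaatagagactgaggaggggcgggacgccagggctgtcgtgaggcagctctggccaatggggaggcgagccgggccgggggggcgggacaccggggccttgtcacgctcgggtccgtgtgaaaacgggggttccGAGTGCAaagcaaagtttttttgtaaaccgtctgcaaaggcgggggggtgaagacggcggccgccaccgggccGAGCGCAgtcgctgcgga
At least 1 core was found in 20.6% of all promoters. A further 2 cores were found before the first of 2 start sites of Slc30a2 and 0 before the other, and Mtf1 had 2. In the same window, the glucocorticoid receptor hexamer TGTTCT, found in 17.5% of promoters, and the STAT element TTCNNNGAA, found in 7.67%, had no match in Mt1, Mt2A or Mt3. The antioxidant response element core TGACNNNGC, found in 10.1% of promoters, matched once each in Mt1, Mt2A and Slc30a1, and Mtf1 had 2 matches. A match describes letters in this window and was not tested as a site.

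Mt2A was low in nearly every muscle and very high in one. In TUMOUR STD it stood at 1.74, 0.796, 1.85, 1.29 and 5.68 CPM in replicates 8 to 12. In CHEMO STD the lowest value was 0.612, the median 1.63 and the highest 3.57 CPM (n = 6). In CHEMO FO the lowest was 1.87, the median 3.14 and the highest 727 CPM (n = 8). Both groups on the standard diet overlapped throughout, and 7 of 8 CHEMO FO samples lay at or below 11.1 CPM. The one high sample was CHEMO FO replicate 18, with 7999 counts of Mt2A. It was 65.3-fold above the next highest sample, CHEMO FO replicate 15 at 11.1 CPM, and 248-fold above the median of the 7 other CHEMO FO samples. The group mean followed that library, at 94.5 ± 256 CPM (SD, n = 8) with it and 4.12 ± 3.25 CPM (SD, n = 7) without it. TUMOUR STD averaged 2.27 ± 1.95 CPM (SD, n = 5) and CHEMO STD 1.91 ± 1.4 CPM (SD, n = 6). Without replicate 15 as well, CHEMO FO stood at 2.95 ± 1.10 CPM (SD, n = 6), and its range of 1.87 to 4.92 CPM overlapped both other groups. Outside CHEMO FO replicate 18 these levels rested on 2 to 67 counts per sample.

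Mt1, the neighbour of Mt2A and its close paralogue, had the same outlying sample. In TUMOUR STD it stood at 0.869, 0.0995, 0.874, 0.162 and 1.42 CPM in replicates 8 to 12. In CHEMO STD the lowest was 0, the median 1.00 and the highest 2.07 CPM (n = 6). In CHEMO FO the lowest was 0, the median 1.25 and the highest 147 CPM (n = 8). The high sample was again CHEMO FO replicate 18, with 1616 counts, followed by replicate 15 at 6.57 CPM, and the other samples of the 3 groups overlapped. The gap between the first and the second sample was 22.3-fold for Mt1. When 13761 genes were ordered by that gap in CHEMO FO replicate 18, Mt2A came first and Mt1 second, ahead of complement C3 at 19.5-fold and Gpnmb at 13.0-fold. For Mt1, TUMOUR STD averaged 0.685 ± 0.554 CPM (SD, n = 5) and CHEMO STD 0.942 ± 0.839 CPM (SD, n = 6). In CHEMO FO the mean was 19.8 ± 51.4 CPM (SD, n = 8) with replicate 18, 1.68 ± 2.22 CPM (SD, n = 7) without it and 0.863 ± 0.557 CPM (SD, n = 6) without replicates 15 and 18.

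Mt1 and Mt2A are closely related in sequence, and how reads that fit both were counted is not given, so the split between them is uncertain. Mt2A took 83.2% of the counts of the pair in CHEMO FO replicate 18 (95% Wilson interval 82.4% to 83.9%). It took 62.9% in replicate 15 (51.1% to 73.2%) and 70.3% over 18 samples, all but replicate 18, summed (66.1% to 74.3%). In the summed counts of each group, leaving out replicate 18, the Mt2A share was 76.2% in TUMOUR STD (67.1% to 83.5%), 64.7% in CHEMO STD (57.6% to 71.2%) and 72.8% in CHEMO FO (66.0% to 78.7%). The share in replicate 18 lay above the intervals of CHEMO STD, of CHEMO FO and of the 18 samples summed, but within that of TUMOUR STD, and all of these intervals cover counting error only. The split also differed within the pair of libraries counted as 1 sample. CHEMO STD replicate 1 had 41 counts of Mt2A and 14 of Mt1, and replicate 2 had 26 and 27.

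Mt3 did not share the pattern. In TUMOUR STD it stood at 0.347, 1.09, 2.62, 1.13 and 2.31 CPM in replicates 8 to 12. In CHEMO STD the lowest was 0.318, the median 1.14 and the highest 3.13 CPM (n = 6), and in CHEMO FO the lowest was 0.727, the median 1.07 and the highest 1.98 CPM (n = 8). The 3 groups overlapped, and the lowest CHEMO FO value was that of replicate 18, with 8 counts and the 16th rank of 19. Of 5 further metallothionein symbols searched for, 2 were in the table, Mt1m and Mt4, and neither passed the filter on low counts.

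Mtf1, the zinc sensor, was listed at 0 counts in 20 of 20 libraries. Whether its gene model took part in the counting is not known, so the zeros are given as listed, with no limit on its level and no comparison between groups.

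**Figure D1:**
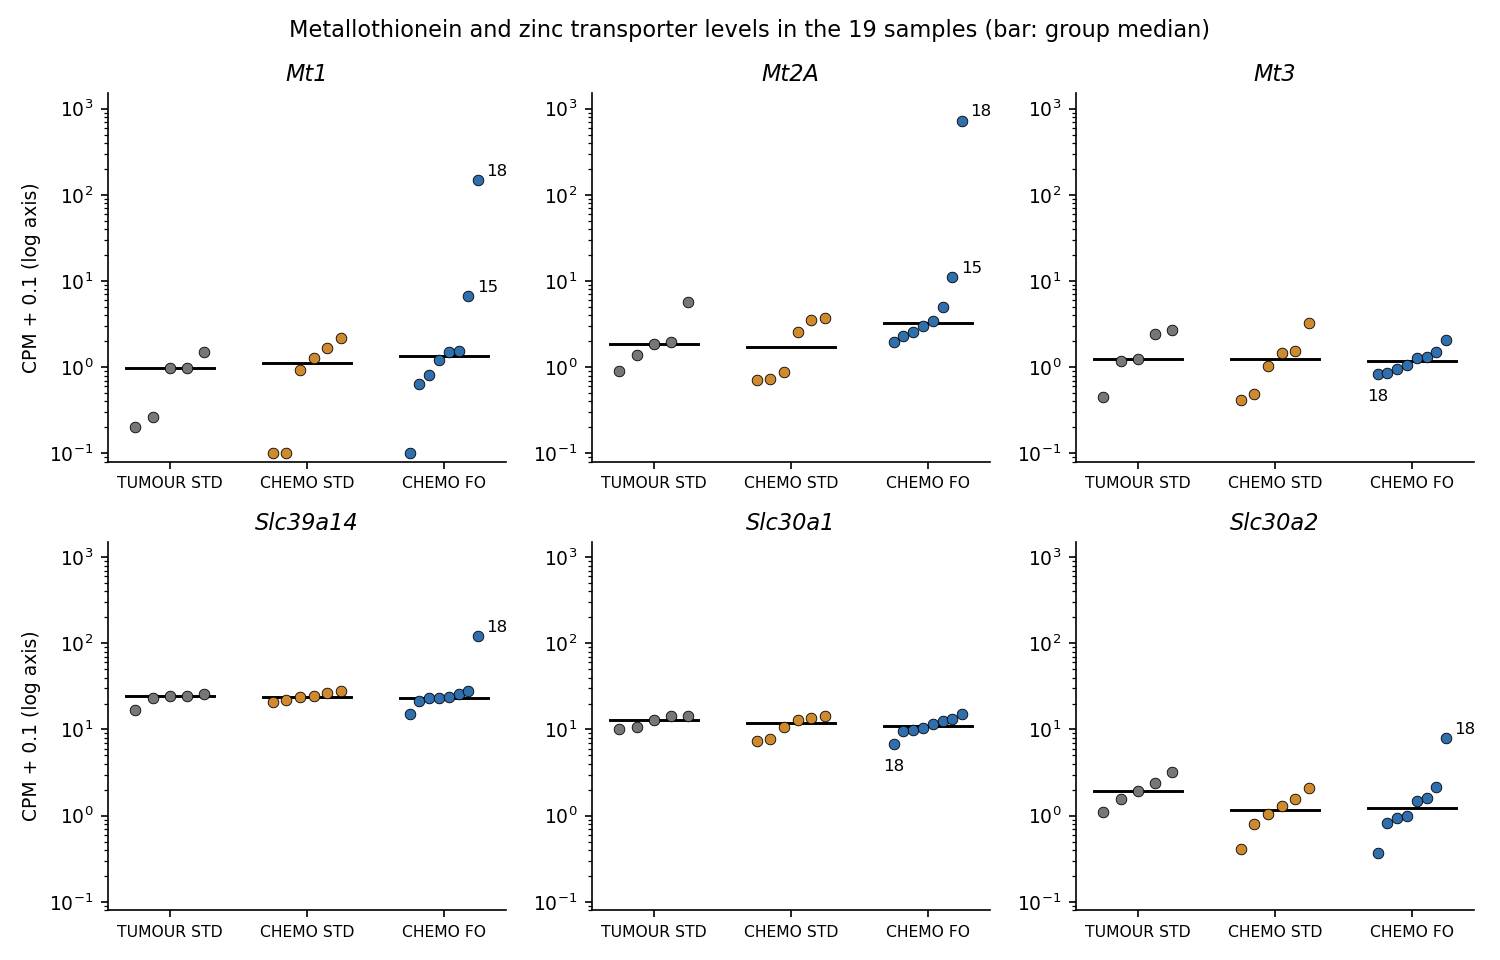
Level of 6 genes in each of 19 samples, as CPM plus 0.1 on a log axis, by group. Each point is a sample, bars are group medians, and numbers mark CHEMO FO replicate 18 and, for Mt1 and Mt2A, replicate 15. Replicate 18 is the highest point for Mt1 (147 CPM), Mt2A (727 CPM), Slc39a14 (120 CPM) and Slc30a2 (7.82 CPM) and the lowest for Slc30a1 (6.63 CPM), while the group medians of each gene lie close together on this axis. Mtf1, at 0 in every library, is not drawn.

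Slc39a14, which imports zinc and iron, was evenly expressed in all muscles but one. In TUMOUR STD it stood at 16.9, 22.9, 24.4, 24.6 and 25.5 CPM in replicates 8 to 12. In CHEMO STD the lowest was 20.98, the median 23.9 and the highest 28.1 CPM (n = 6). In CHEMO FO the lowest was 15.1, the median 23.2 and the highest 120 CPM (n = 8). All 3 groups overlapped, with CHEMO FO replicate 18 alone above them. That library held 1322 counts and was 4.27-fold above the next sample and 5.21-fold above the median of the 7 other CHEMO FO samples. TUMOUR STD averaged 22.9 ± 3.49 CPM (SD, n = 5) and CHEMO STD 24.3 ± 2.70 CPM (SD, n = 6), and the mean of CHEMO FO was 35.0 ± 34.6 CPM (SD, n = 8) with replicate 18 and 22.8 ± 4.04 CPM (SD, n = 7) without it.

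Slc30a1, the exporter, was lowest in CHEMO FO replicate 18, where the other transporters of the 7 genes were highest. In TUMOUR STD it stood at 14.1, 12.9, 10.7, 10.0 and 14.4 CPM in replicates 8 to 12. In CHEMO STD the lowest was 7.34, the median 11.7 and the highest 14.1 CPM (n = 6), and in CHEMO FO the lowest was 6.63, the median 10.9 and the highest 14.9 CPM (n = 8). The groups overlapped, with both ends of the CHEMO FO range in replicates 18 and 15. Means were 12.4 ± 1.97 CPM (SD, n = 5), 11.0 ± 2.93 CPM (SD, n = 6) and 11.0 ± 2.56 CPM (SD, n = 8) in TUMOUR STD, CHEMO STD and CHEMO FO, and 11.6 ± 1.99 CPM (SD, n = 7) in CHEMO FO without replicate 18.

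Slc30a2, the vesicular transporter, was near the limit of detection. In TUMOUR STD it stood at 3.13, 0.995, 1.85, 1.46 and 2.31 CPM in replicates 8 to 12. In CHEMO STD the lowest was 0.306, the median 1.07 and the highest 2.00 CPM (n = 6), and in CHEMO FO the lowest was 0.267, the median 1.14 and the highest 7.82 CPM (n = 8). The groups overlapped apart from CHEMO FO replicate 18, whose 86 counts were 2.50-fold above the next sample. Without it CHEMO FO averaged 1.10 ± 0.594 CPM (SD, n = 7), while CHEMO STD averaged 1.10 ± 0.590 CPM (SD, n = 6) and TUMOUR STD 1.95 ± 0.819 CPM (SD, n = 5).

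The order of the group means changed with replicate 18. With it, CHEMO FO came first for Mt1, Mt2A and Slc39a14, and without it for Mt1 and Mt2A. For Mt1 that place rested on replicate 15, since without both replicates CHEMO FO, at 0.863 CPM, lay below CHEMO STD at 0.942 CPM. For Slc39a14 the 3 means without replicate 18 lay between 22.8 and 24.3 CPM. For none of the 6 detected genes did neighbouring group means differ by more than the larger of their SDs once replicate 18 was left out, except for Slc30a2, where TUMOUR STD stood above both chemotherapy groups by more than 1 SD of either but with overlapping values.

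Chemotherapy on the standard diet was compared with the tumour alone in a fit of all genes with edgeR's quasi-likelihood test. Of the 7 genes, 4 passed the filter on low counts (Mt2A, Slc39a14, Slc30a1 and Slc30a2), Slc30a2 only with CHEMO FO replicate 18 among the samples. Slc30a2 lay at the edge of the filter. It also fell below it when CHEMO STD replicate 4, TUMOUR STD replicate 12 or CHEMO FO replicate 13, 17 or 20 was left out. Slc30a2 is therefore given by its values, with no test. Calls required an unadjusted p under 0.05 together with a 1.5-fold difference. Mt2A was chosen on a comparison that uses the same CHEMO STD values, so its difference here is also a description with no test. In CHEMO STD against TUMOUR STD, neither Slc39a14 nor Slc30a1 was called by edgeR, DESeq2 or limma voom. Neither reached an unadjusted p below 0.05 by any of them, where 2.38% of 11716 genes tested were called (762 genes below an unadjusted p of 0.05). Mt2A differed by 0.11 on the log2 scale (SE 1.68), and by 0.01 (SE 0.457) without CHEMO FO replicate 18. Slc39a14 differed by 0.09 (SE 0.383), Slc30a1 by -0.15 (SE 0.203) and Slc30a2 by -0.73 (SE 0.626). Without CHEMO FO replicate 18, which widens the spread shared by the 3 groups, 2.66% of 11583 genes were called, again with neither Slc39a14 nor Slc30a1 among them. For Mt1 and Mt3, below the filter, the mean log2 CPM differed by 0.14 (two-sided exact permutation p = 0.823) and -0.26 (p = 0.660) over 462 arrangements.

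Chemotherapy with fish oil was then compared with the tumour alone, a comparison that uses the same CHEMO FO values on which Mt2A was chosen, so its difference here is also a description with no test. Mt2A was 44.9-fold higher in CHEMO FO (log2 5.49, SE 1.54), and without replicate 18 it was 1.88-fold higher (log2 0.91, SE 0.525). DESeq2, which by default replaces a count far from the rest of a large group, put the difference at 0.81 on the log2 scale (SE 0.528), and limma voom with sample quality weights at 1.38 (SE 0.736). Of 8 CHEMO FO samples, 8 lay above the TUMOUR STD median of 1.74 CPM and 2 above its highest value of 5.68 CPM. Slc39a14 and Slc30a1 were tested, and 0 of 2 were called by edgeR, with 0 below an unadjusted p of 0.05, where 3.6% of all genes tested were called with replicate 18 and 2.36% without it. Slc39a14 differed by 0.64 (SE 0.363, adjusted p = 0.585 by edgeR) with replicate 18 and by 0.00 (SE 0.142) without it. Slc30a1 differed by -0.18 (SE 0.192) and by -0.08 (SE 0.176) without it, and Slc30a2 by 0.16 (SE 0.554). In a two-sided exact permutation test over 1287 arrangements, Mt1 differed by 1.497 in mean log2 CPM (p = 0.287) and Mt3 by -0.19 (p = 0.594), and without replicate 18, over 792 arrangements, by 0.65 (p = 0.4003) and -0.13 (p = 0.722). All of these genes were chosen with their values in CHEMO FO replicate 18 known. Their p values in this comparison therefore decide nothing and are given as a description.

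In the diet comparison, CHEMO FO against CHEMO STD, the fitted Mt2A difference was 5.38 on the log2 scale (SE 1.42), or 41.6-fold. Without replicate 18 it was 0.91 (SE 0.497), or 1.88-fold, and without replicates 15 and 18 it was 0.45 (SE 0.467). Slc39a14 differed by 0.55 (SE 0.344) and, without replicate 18, by -0.10 (SE 0.136). Slc30a1 differed by -0.03 (SE 0.185) and 0.06 (SE 0.171), and Slc30a2 by 0.89 (SE 0.572) with replicate 18 only, since without it the gene no longer passed the filter. These values describe the comparison on which the genes were chosen, in which 1.66% of all genes tested were called with replicate 18 and 1.47% without it, and nothing is read from them against that background. Over all genes, 0 passed an adjusted p of 0.05 by edgeR in each of the 3 comparisons, with 762, 1059 and 528 below an unadjusted 0.05 in the order given, and 0, 12 and 0 passed by DESeq2.

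**Figure D2:**
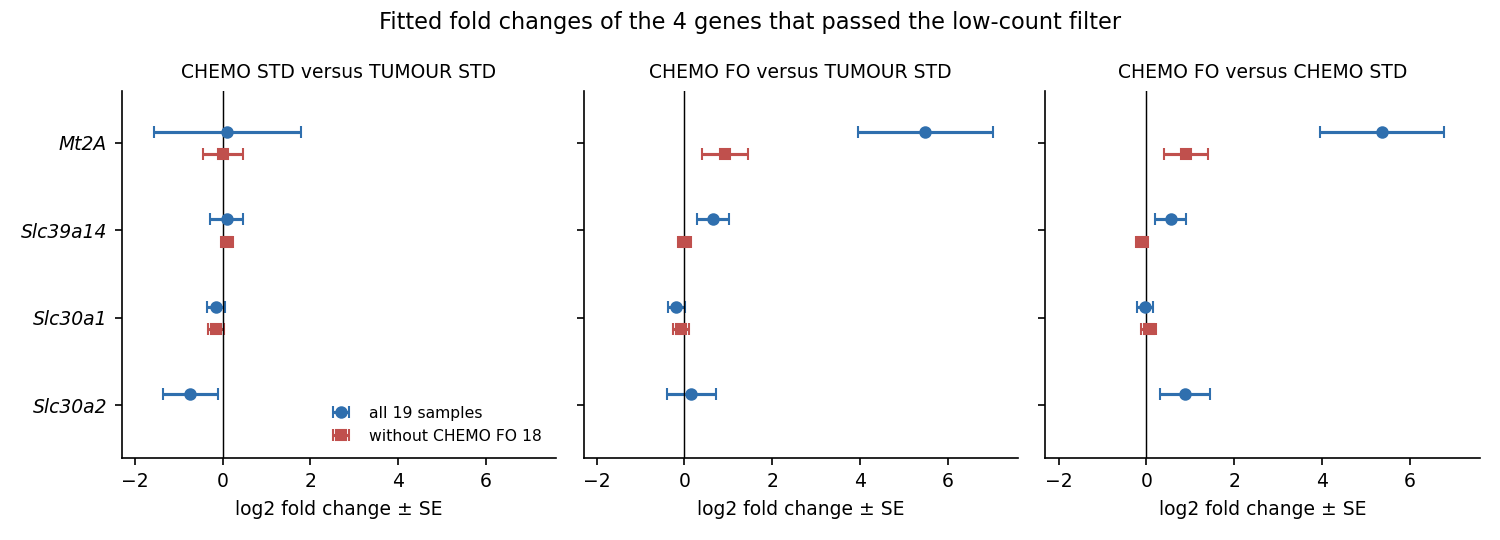
Fitted log2 fold change with its standard error (bars) for the 4 genes that passed the filter, in the 3 comparisons, with all 19 samples (circles) and without CHEMO FO replicate 18 (squares). Mt2A stands at 5.49 and 5.38 in the CHEMO FO comparisons with that library and at 0.91 in both without it, and Slc39a14 moves to near 0. Slc30a2 has no value without it.

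Leaving out any other library left the Mt2A difference between CHEMO FO and CHEMO STD at 5.24 to 5.59 on the log2 scale and that between CHEMO FO and TUMOUR STD at 5.23 to 6.10. Leaving out replicate 18 alone moved them to 0.91.

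**Figure D3:**
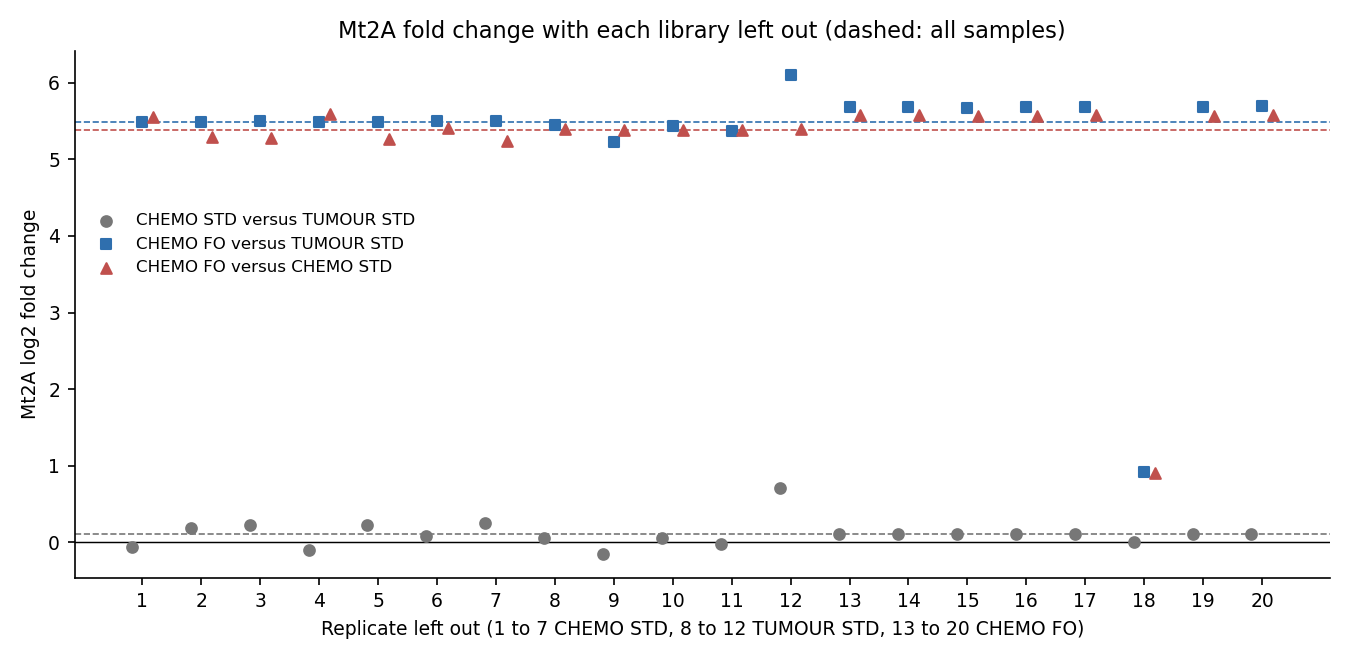
Mt2A log2 fold change (vertical axis) in the 3 comparisons with each library left out in turn (horizontal axis, by replicate number); dashed lines are the values with all samples. The CHEMO FO comparisons drop to 0.91 when replicate 18 is left out and to no other low value, and the comparison of CHEMO STD with TUMOUR STD stays between -0.15 and 0.71.

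The other genes of zinc and metal handling were taken from a list of importers, exporters, copper, iron and thiol stress genes. The list was drawn up with earlier results of these data known. Of its genes, 52 were in the table and 38 were tested. In CHEMO STD against TUMOUR STD, 0 of the 38 were called by edgeR, DESeq2 or limma voom and 2 had an unadjusted p below 0.05 by edgeR, beside 2.38% of all genes called. The median log2 fold change was -0.02, beside 0.00 over all genes tested. In CHEMO FO against TUMOUR STD 1 (2.63%) was called, lower, beside 3.6% of all genes, with a median of 0.06 beside 0.00. In the diet comparison 1 was called higher and 1 lower (5.26% together, beside 1.66% of all genes), with a median of 0.09 beside -0.01. Without replicate 18 the counts were 0, 1 and 1, and the medians -0.01, 0.01 and 0.03.

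The called gene that was lower was Hfe, which regulates iron uptake together with the transferrin receptor. Hfe ranged from 2.26 to 3.02 CPM in TUMOUR STD (median 2.82), from 1.57 to 2.54 CPM in CHEMO STD (median 2.16) and from 0 to 1.92 CPM in CHEMO FO (median 1.22). The chemotherapy groups overlapped, and levels this low rest on few counts in these libraries. Its log2 fold change was -1.21 against TUMOUR STD (SE 0.323, adjusted p = 0.486 by edgeR) and -0.88 against CHEMO STD (SE 0.322, adjusted p = 0.974 by edgeR). Without replicate 18 both were called again, at -1.09 and -0.77. The called gene that was higher was Txnrd1, a thioredoxin reductase, with a range of 36.8 to 50.9 CPM in CHEMO STD and of 41.3 to 227 CPM in CHEMO FO. Its difference with diet was 0.73 on the log2 scale (SE 0.309, adjusted p = 0.974 by edgeR) with replicate 18 and 0.21 (SE 0.130, not called) without it.

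Among ZIP importers, 0 of 8 tested were called by edgeR in any comparison, with 1, 2 and 0 below an unadjusted p of 0.05 in the order of the comparisons. Slc39a1, a plasma membrane importer, averaged 113 ± 30.4, 97.0 ± 14.8 and 110 ± 23.6 CPM (SD) in TUMOUR STD, CHEMO STD and CHEMO FO. Slc39a13, an intracellular zinc transporter, differed by -0.43 between CHEMO FO and TUMOUR STD (SE 0.190, adjusted p = 0.534 by edgeR), short of 1.5-fold. Among ZnT exporters, 0 of 5 were called by edgeR and 0 were below an unadjusted p of 0.05, and Slc30a9 averaged 60.4 ± 14.2, 71.4 ± 10.7 and 65.8 ± 8.90 CPM (SD) in the same order, with Slc30a4 at 36.6 ± 5.85, 37.3 ± 5.84 and 41.5 ± 11.6 CPM (SD). Among copper genes, 0 of 8 were called by edgeR, with 0, 1 and 0 below an unadjusted p of 0.05. The copper-zinc superoxide dismutase Sod1 stood at 91.7 ± 10.1, 98.9 ± 9.97 and 98.9 ± 16.997 CPM (SD) and the copper chaperone Cox17 at 32.0 ± 6.51, 37.3 ± 3.12 and 38.6 ± 5.03 CPM (SD). Of 11 iron genes, Hfe alone was called, and ferritin heavy chain Fth1 averaged 387 ± 54.2, 409 ± 56.3 and 421 ± 60.8 CPM (SD) and hemojuvelin Hjv 1172 ± 150.1, 1222 ± 174.1 and 1200 ± 297.0 CPM (SD). Of 6 thiol stress genes, Txnrd1 alone was called, and the stress regulator Nfe2l2 averaged 54.4 ± 9.51, 48.2 ± 8.57 and 57.3 ± 19.03 CPM (SD).

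In CHEMO FO replicate 18 the high levels of Mt1 and Mt2A stood beside outlying levels of other metal and stress genes. Of the 6 detected zinc genes, 4 were above and 1 below each of the 18 other samples, where 16.5% of all genes were above and 15.8% below. These 6 genes were chosen with their values in that library known, so nothing is read from their number against these shares. Of 41 other zinc and metal genes with enough counts, 16 were above and 7 below. Thiol stress genes were above in 5 of 7, among them the haem oxygenase Hmox1 at 21.9 CPM against at most 8.74 CPM elsewhere, and Txnrd1 at 227 CPM against at most 62.9 CPM. Of 9 ZIP importers 4 were above and 2 below, with Slc39a10 at 33.9 CPM against at most 21.5 CPM, and of 6 ZnT exporters 2 were above and 1 below, with Slc30a4 at 67.5 CPM against at most 47.8 CPM. Of 8 copper genes 2 were above, Slc31a2 among them, and 1 below. Those below in these classes were Slc39a3, Slc39a13, Slc30a3 and Ccs. Iron genes went both ways, with 3 of 11 above and 3 below. The copper-binding ferroxidase ceruloplasmin (Cp) stood at 83.9 CPM against at most 34.9 CPM, and the transferrin receptor Tfrc at 74.7 CPM against at least 116 CPM.

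Known inducers of metallothionein genes were set beside them. Their lists were drawn up with earlier results of these data known, so the counts are a description. Of 11 glucocorticoid response genes, 7 were highest in CHEMO FO replicate 18 and 0 lowest, where 16.5% of all genes were highest and 15.8% lowest. Tsc22d3, a classical glucocorticoid target, stood at 653 CPM against at most 243 CPM. The receptor gene Nr3c1 went the other way, at 0.741-fold of the median of the 7 other CHEMO FO samples. Fkbp5, another such target, was highest not there but in CHEMO FO replicate 15, at 112 CPM against 67.9 CPM in replicate 18. Replicate 15 was the sample with the second highest Mt1 and Mt2A. Of 10 genes of the IL6 and STAT3 pathway with enough counts, 8 were highest in replicate 18, with Stat3 at 310 CPM against at most 132 CPM and Cebpd at 92.2 CPM against at most 43.1 CPM. The receptor gene Lifr was lowest there. A part of either pathway in the levels of Mt1 and Mt2A was not tested.

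Between groups, 0 of 11 glucocorticoid genes were called by edgeR in CHEMO STD against TUMOUR STD (0 below an unadjusted p of 0.05), 3 in CHEMO FO against TUMOUR STD (Pdk4, Tsc22d3 and Zbtb16, all higher) and 1 with diet (Glul, higher), beside 2.38%, 3.6% and 1.66% of all genes. Without replicate 18 the counts were 0, 2 and 0, beside 2.66%, 2.36% and 1.47%. Of 9 IL6 and STAT3 genes tested, 0, 3 (Cebpb, Cebpd and Socs3, all higher) and 0 were called, and without replicate 18 the counts were 1, 1 and 0, the called gene being Cebpd each time, beside the same shares of all genes. The median log2 fold change in CHEMO FO against TUMOUR STD was 0.65 for the glucocorticoid list and 0.43 for the IL6 and STAT3 list with replicate 18, and 0.37 and -0.01 without it, beside 0.00 over all genes.

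**Figure D4:**
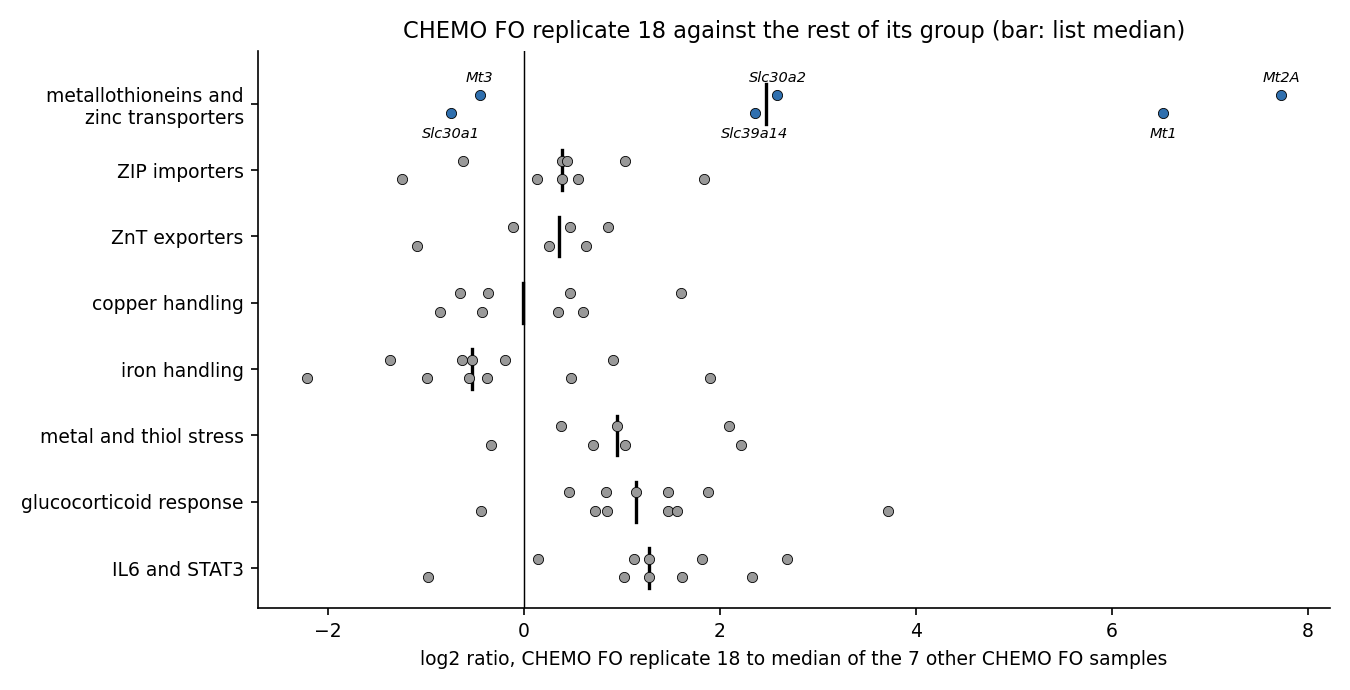
Log2 ratio of CHEMO FO replicate 18 to the median of the 7 other CHEMO FO samples (0.5 CPM added to both) for each gene with enough counts, by list. Points are genes and bars are list medians. Mt2A (7.73) and Mt1 (6.52) lie far right of the list medians, which run from -0.52 for iron handling to 1.28 for IL6 and STAT3 genes among the other lists, and Slc30a1 (-0.74) and Mt3 (-0.45) lie left of 0.

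Cell type markers moved in the same library. Its 6 macrophage markers summed to 566 CPM, against 135 to 267 CPM in TUMOUR STD, 156 to 303 CPM in CHEMO STD and 140 to 228 CPM in the 7 other CHEMO FO samples, and 4 of 6 were above the median of those 7. Its fibroblast, endothelial and adipocyte sums were the lowest of 19, at 1291, 92.7 and 6.27 CPM. By single markers, 2 of 4 fibroblast, 0 of 3 endothelial and 1 of 5 adipocyte markers were above the median of the 7 other CHEMO FO samples. Of 8 keratinocyte markers 6 were at 0 there, Krt5 and Krt14 among them, and the remaining 2 were above that median. The keratinocyte sum was 5.45 CPM and ranked 9th of 19. Of 4 hepatocyte markers Alb and Ttr were at 0, of 4 neutrophil markers Mpo and Elane, and of 6 lymphocyte markers Cd79a, Cd79b and Ms4a1, while the remaining 2, 2 and 3 markers of these lists were above the median of the 7 other CHEMO FO samples. Their sums were 0.454, 1.27 and 0.818 CPM, and the lymphocyte sum lay above each of those 7 samples (at most 0.720 CPM) and ranked 3rd of 19. The 4 Schwann cell markers summed to 37.5 CPM, within the range of the others. The part of macrophages or of lower muscle content in the levels of Mt1, Mt2A and Slc39a14 was not tested, and in bulk tissue fewer cells of a type and less RNA per cell cannot be told apart. The keratinocyte sums of 544 CPM in TUMOUR STD replicate 10 and 116 CPM in CHEMO FO replicate 16 stood beside 1.85 and 2.44 CPM of Mt2A.

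The genes whose pattern was most like that of Mt2A were found by Spearman correlation across 19 samples after the group means were subtracted, as a description over libraries that share their depth and RNA content. Ctsl, the lysosomal protease cathepsin L, came first (rho 0.89, and 0.72 over 18 samples without replicate 18), and Ip6k3, an inositol hexakisphosphate kinase of muscle, second (0.86 and 0.84). The autophagy gene Map1lc3b followed (0.86 and 0.71), then Cp (0.82 and 0.68), Fmo2 (0.81 and 0.59), Mgp (0.81 and 0.73), AABR07026424.1 (0.79 and 0.50) and Prpsap1 (0.79 and 0.67). This order depended on replicate 18, which entered the CHEMO FO mean that was subtracted. Without that library the same genes, from Ctsl to Prpsap1, ranked 13, 1, 14, 25, 94, 10, 254 and 30. Ctsl stood at 1031 CPM in replicate 18, at 201 CPM in replicate 15 and at a median of 113 CPM over 18 samples, and Ip6k3 at 67.3, 40.5 and 24.9 CPM, so both had the same first and second sample as Mt2A. The rho of Mt2A with Mt1 was 0.79, and 0.74 without replicate 18. With the transporters it was 0.51 for Slc39a14, 0.18 for Slc30a1 and 0.61 for Slc30a2, and without replicate 18 it was 0.20, 0.60 and 0.51. Its median was 0.07 over the 38 other zinc and metal genes, 0.55 over the 11 glucocorticoid genes and 0.47 over the 9 IL6 and STAT3 genes, beside 0.01 over all genes, and without replicate 18 these medians were 0.04, 0.46 and 0.34, beside -0.0031.

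The genes most like Mt1 were Faap20 (rho 0.86, and 0.81 without replicate 18), the complement gene C1qb (0.85 and 0.81), Actr1a (0.85 and 0.76), Rab33b (0.84 and 0.77) and Dedd2 (0.83 and 0.78). Without replicate 18 they ranked 2, 1, 11, 10 and 9. C1qb, made by macrophages, stood at 81.1 CPM in replicate 18 and at 15.9 to 54.5 CPM in the 18 others. The median rho of Mt1 with 6 macrophage markers was 0.61, and 0.63 without replicate 18, against 0.40 and 0.40 for Mt2A.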

How the data were processed

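Gastrocnemius total RNA was sequenced in 20 libraries. The authors' processing, per the labels and the study's methods, used CASAVA 1.9, Trim Galore 0.4.1, FastQC 0.11.4, TopHat2 2.0.10 and Bowtie2 on the rat genome Rnor 6, with gene counting in Partek Flow, and they deposited unnormalised integer counts per gene. Counting settings, strand use included: not given in the sources used here. The 388 rows with no gene name, 0.102% to 0.272% of a library's counts, were left out.

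CHEMO STD replicates 1 and 2 were summed as 1 sample. Their chi-square per gene was 2.23 over genes of at least 500 counts, against 13.7 to 255 in 58 other pairs within a group. The analysis of these counts used edgeR 4.0.16 (R 4.3.3), with TMM scaling, the default filter (minimum count 10, minimum total 15) and the quasi-likelihood test, with the 3 groups in 1 fit. Standard errors are the log2 fold change divided by the square root of F. Adjusted p values are Benjamini-Hochberg over all genes tested. Genes under the filter were tested by exact permutation in Python 3.11.15 with scipy 1.17.1, on log2 CPM with a prior count of 2. Ratios of single libraries add 0.5 CPM. The fit was tested on simulated counts. Depth sets the precision, since a level of 1 CPM rests on few counts in these libraries. Intervals cover counting error only.

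Genes and lists were chosen with earlier results of these data known. Named beside the 7 genes were listed zinc and metal genes that were called in any comparison or were the 2 most abundant of their class, the called inducer genes, and the genes most like Mt2A and Mt1. Other genes named from CHEMO FO replicate 18 were chosen after their values were seen. Alternatives were DESeq2 1.42.0, limma 3.58.1 voom with sample weights, other scalings and filters, replicates 1 and 2 kept apart, only the 2 groups compared, other prior counts and each library left out. DESeq2 with outlier counts kept and CHEMO FO replicates 15 and 18 both left out were added after seeing the data. Promoter sequences are RefSeq's for GRCr8, which matched 6 of the 7 genes by symbol. Figures were drawn with matplotlib 3.10.9. The result of 1 gene is not reported here.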

Additional observations from a re-analysis of the deposited data

Results flagged for a closer look

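In 18 sets of values, each 1 gene in 1 group of 5 to 8 samples, 5 had a sample far from the others. Chance flags about 1 of 20 such sets, but the genes were chosen with their values in CHEMO FO replicate 18 known, so the number is a description and is not set against that rate. CHEMO FO replicate 18 accounted for 4 of them. It lay far above its group for Mt2A (727 CPM), Mt1 (147 CPM), Slc39a14 (120 CPM) and Slc30a2 (7.82 CPM). The fifth was TUMOUR STD replicate 12, which lay far above its group for Mt2A at 5.68 CPM, against 0.796 to 1.85 CPM in the 4 others. Leaving that sample out moved the Mt2A difference between CHEMO STD and TUMOUR STD from 0.11 to 0.71 on the log2 scale, and that between CHEMO FO and TUMOUR STD from 5.49 to 6.10.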

How the results depend on the processing

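CHEMO FO replicate 18 set the size of the Mt2A differences that involve its group. In CHEMO FO against TUMOUR STD, where Mt2A has no test, its direction was kept under all alternatives run, but its log2 fold change was 0.81 with DESeq2, 1.38 with limma voom and sample weights and 0.45 with CHEMO FO replicates 15 and 18 both left out, and leaving out 1 library gave 0.91 to 6.10. Against CHEMO STD the same settings gave 0.94, 1.02 and 0.45, and leaving out 1 library 0.91 to 5.59. With outlier counts kept in DESeq2 the values were 5.39 and 5.61. The small Mt2A difference between CHEMO STD and TUMOUR STD turned its sign with DESeq2 (-0.13, and -0.22 with outlier counts kept), with only the 2 groups compared (-0.0023) and without replicates 15 and 18 (-0.0026), and ranged from -0.15 to 0.71 with 1 library left out. Slc39a14 in CHEMO FO against TUMOUR STD turned to -0.042 without replicates 15 and 18 and ranged from 0.00 to 0.77 with 1 library left out. It was called, at 0.77, without CHEMO FO replicate 17. Slc30a2 turned to -0.76 with voom and ranged from -0.033 to 0.39 over the libraries whose removal left it above the filter. That range does not cover the removal of replicate 18, which left Slc30a2 with no fit. Its mean was then 1.10 CPM in CHEMO FO, below the 1.95 CPM of TUMOUR STD. Mt1 in CHEMO STD against TUMOUR STD turned to -0.079 with a prior count of 0.5 and ranged from -0.13 to 0.47. Mt3 in CHEMO FO against TUMOUR STD ranged from -0.51 to 0.030.

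Of the other zinc and metal genes, 2 instead of 1 were called in CHEMO FO against TUMOUR STD with no filter or with DESeq2, whether or not outlier counts were kept, and 1 to 3 with 1 library left out. In the diet comparison 1 instead of 2 was called with voom, with only the 2 groups compared and without replicates 15 and 18, and 1 to 2 with 1 library left out. The cause of each change was not tested. Another 440 values kept their direction and their side of the threshold or, where there was no test, moved by less than 1 SD. The number of all genes called, 422 in CHEMO FO against TUMOUR STD, was 1116 with no filter and 237 without replicates 15 and 18, and in the 2 other comparisons 971 and 722 with no filter against 279 and 195. Mt1, Mt3 and Slc30a2 rest on few counts in most libraries, which limits the precision of their values. No paired analysis was possible because the replicate numbers, 1 to 20, do not repeat between groups.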

Other observations

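Beyond metal handling, the genes that stood highest in CHEMO FO replicate 18 over each of the 18 other samples, after Mt2A and Mt1, included complement C3 (68.9 CPM, 19.5-fold over the next sample), the lysosomal and macrophage glycoprotein Gpnmb (226 CPM, 13.0-fold), Pvr (143 CPM, 12.0-fold), Tubb6 (210 CPM, 10.7-fold) and Tgif1 (62.9 CPM, 9.81-fold). The matrix inhibitor Timp1 (60.6 CPM, 7.52-fold) and the muscle stress gene Ankrd1 (348 CPM, 7.03-fold) were also among the highest. These genes were chosen after their values were seen, in 1 library, and their levels are descriptions with no test.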
